A study of Mus musculus with 6 samples.

Results

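The genes described here encode the plasminogen activator system: the activators Plau and Plat, the urokinase receptor Plaur, and the inhibitors Serpine2 and Serpinb2. They were chosen by name. Of these 5 genes, 4 could be read from probe sets that carry a single gene symbol, each through 1 probe set, among 19939 genes measured. Serpine2 was not analysed here. The samples were 3 of a tetraploid line of mouse embryonic fibroblasts, labelled as having an abnormal DNA content and called transformed in the series title, and 3 of a diploid line that serves as the normal control in the labels. Embryonic fibroblasts are connective tissue cells obtained by culturing minced embryos. Both lines were grown in the same serum-containing medium to near confluence, and total RNA was measured on Affymetrix whole-transcript mouse gene arrays, 1 array per sample. No other treatment, strain or age is given in the labels. With 1 line for each ploidy, effects of ploidy, of transformation and of the line itself cannot be told apart. Whether a line's samples came from separate cultures is not stated, so p-values reflect the spread between these samples, which may be technical.

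Plasminogen is a circulating zymogen that urokinase (Plau) and tissue-type plasminogen activator (Plat) cut into plasmin, a protease that dissolves fibrin and degrades matrix proteins. Urokinase works mostly at the cell surface, where a receptor on a lipid anchor (Plaur) holds it close to plasminogen bound by docking proteins, while Plat is best known for dissolving clots on fibrin. Serpins end the reaction by trapping the activators in a covalent complex, and receptors of the LDL receptor family then take that complex up. Fibroblasts are a known source of urokinase, and the system is known for its part in cell migration, wound repair and tumour invasion.

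Values are log2 expression values as deposited, 1 per gene and array, and levels of different genes are not compared because each probe set has its own brightness. The background level of an array is the 95th percentile of 1027 olfactory receptor genes, which are rarely active outside sensory tissue, and it lay between 7.01 and 7.41. All 10 fibroblast markers lay above it on every array. By the test below 2 of them, Col1a1 and Fn1, were lower in the tetraploid line (20%, against 7.75% of all genes). In 7 of the 10 the lines did not overlap (70%, against 37.3% of all genes). Among these, Pdgfra lay higher in the tetraploid line and Thy1 and Pdgfrb lower, and none of them passed (limma adjusted p 0.0619, 0.141 and 0.124). The call of Col1a1 ended in every fit without 1 array but the one without tetraploid array 3 (limma adjusted p up to 0.139). Differences are tetraploid minus diploid, and a gene is said to have risen or fallen where limma gave a Benjamini-Hochberg adjusted p below 0.05 over all genes. By that rule 2758 genes were called, 13.8% of those tested, 7.75% lower and 6.08% higher in the tetraploid line, and the median difference of all genes was 0.07. Array medians differed by at most 0.0435 log2 between the 6 arrays.

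The urokinase gene and the urokinase receptor gene fell together in the tetraploid line, while the gene of the other activator, Plat, did not pass the test and Serpinb2 was not above background on any array. Of the 4 measured members 2 fell and 0 rose, where 7.75% of all genes fell. The members were chosen with earlier results of these data known, so this count is a description. In Plau and Plaur the 3 tetraploid values all lay below the 3 diploid values. Separate groups, in either direction, were found in 37.3% of all genes. In these cultures, fewer cells expressing a gene and less RNA per cell cannot be told apart.

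**Figure D1:**
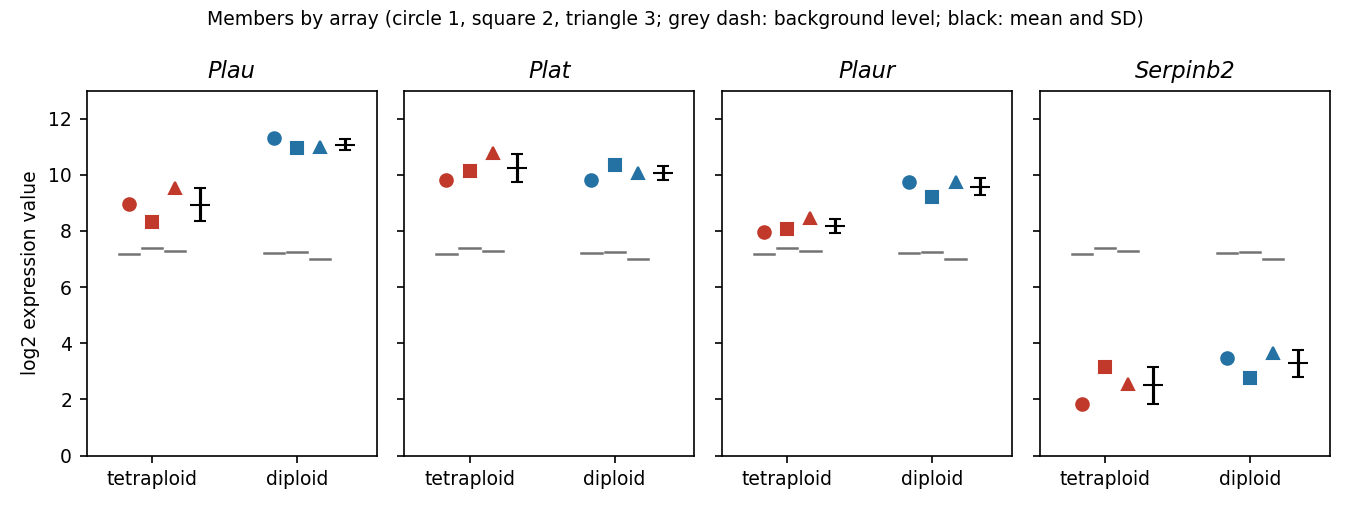
Log2 expression values of Plau, Plat, Plaur and Serpinb2 on each array, tetraploid in red on the left and diploid in blue on the right, with the background level of each array as a grey dash and the mean and SD (n = 3) in black. The groups are separate for Plau and Plaur, they overlap for Plat, and all 6 values of Serpinb2 lie below background.

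Plau encodes urokinase, the activator that works on the surface of moving cells. It stood at 8.95, 8.33 and 9.53 on tetraploid arrays 1 to 3, against 11.30, 10.94 and 10.98 on diploid arrays 1 to 3. All 6 values lay above background, and the highest tetraploid value was lower than the lowest diploid value. The means were 8.94 ± 0.60 in the tetraploid line and 11.07 ± 0.20 in the diploid line (SD, n = 3 each), a difference of -2.14 on the log2 scale (95% interval -2.91 to -1.37; limma adjusted p = 0.0097). Plau transcripts were thus 4.40-fold lower in the tetraploid line. A difference at least this low was seen in 708 genes, called or not, 3.55% of those tested. The tetraploid arrays also differed more among themselves than the diploid ones, with tetraploid array 2 the lowest of the 6. The call of Plau remained without any 1 array (limma adjusted p 0.00905 to 0.0397).

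Plaur encodes the receptor that holds urokinase at the plasma membrane. Its values were 7.98, 8.07 and 8.47 on the tetraploid arrays, against 9.76, 9.22 and 9.76 on the diploid arrays. The tetraploid values lay close above background, and the diploid values well above it. Plaur averaged 8.18 ± 0.26 in the tetraploid line and 9.58 ± 0.31 in the diploid line (SD, n = 3 each). The difference was -1.40 (95% interval -1.99 to -0.82, limma adjusted p = 0.0148), or 2.65-fold lower. At least as low a difference was seen in 6.01% of all genes, called or not. Without diploid array 1 or diploid array 3 the call ended (limma adjusted p 0.0612 and 0.0583), at differences of -1.31 and -1.32.

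Plat encodes tissue-type plasminogen activator. Its values were 9.81, 10.14 and 10.78 on the tetraploid arrays, against 9.81, 10.33 and 10.05 on the diploid arrays. The ranges overlapped, and all values lay above background. Plat averaged 10.24 ± 0.49 in the tetraploid line and 10.06 ± 0.26 in the diploid line (SD, n = 3 each), a difference of 0.18 that did not pass the test (limma adjusted p = 0.747). Its 95% interval, -0.53 to 0.89, does not reach the difference measured for Plau or Plaur. Without tetraploid array 3 the difference changed sign, to -0.09 (limma adjusted p = 0.857).

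Serpinb2 encodes plasminogen activator inhibitor type 2, a serpin best known from macrophages, keratinocytes and placenta. Its values were 1.83, 3.15 and 2.54 on the tetraploid arrays, against 3.48, 2.75 and 3.66 on the diploid arrays. All lay far below background, so no fold is given. The deposited values differed by -0.79 (limma adjusted p = 0.238), and raising every value to the background level left 0.12, which only reflects the background levels themselves.

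Differences between members were also taken within each array, where anything that shifts a whole array cancels. Plau minus Plat was -0.86, -1.81 and -1.26 on tetraploid arrays 1 to 3 and 1.49, 0.61 and 0.93 on diploid arrays 1 to 3. The groups did not overlap, and the shift was -2.32. Plaur minus Plat shifted by -1.58, with means of -2.07 ± 0.24 in the tetraploid line and -0.48 ± 0.56 in the diploid line (SD, n = 3 each). Plau minus Plaur was 0.97, 0.25 and 1.06 on the tetraploid arrays, against 1.54, 1.72 and 1.22 on the diploid arrays, a shift of -0.73, so Plau lay lower relative to Plaur on every tetraploid array. A two-sided exact permutation test gave p = 0.1 for each of the 3 pairs, which is the smallest value that 3 arrays against 3 allow. The pairs with Plat were added after the data had been seen, and they restate the differences above within arrays.

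Transcription of the human counterparts of Plau and Plaur is known to respond to AP-1, a factor built from FOS and JUN proteins, and AP-1 sites are likewise known in promoters of matrix metalloprotease genes. The RefSeq promoter table (GRCm38.p6) held windows for Plaur and Serpinb2 among the measured members, and the 250 bases before the annotated start were searched for TGACTCA on both strands, where the reverse complement reads TGAGTCA. The Plaur window held the motif, beginning 69 bases before the start used in the table, which lies 1546 bases inside the gene as RefSeq bounds it, and the Serpinb2 windows did not. Of 32851 windows in the table, 4.46% held it. Among the members and listed pathway genes that fell, 14 had a window and 3 of these held the motif: Plaur, Mmp3 and Mmp13. Among all measured members and pathway genes, 50 had a window and 5 held it, the other two being Anxa2, which was not called, and Fgb, which lay below background on all arrays. Among all genes that fell, 5.54% of the 1228 with a window held it, against 4.75% of the 15614 measured genes with a window. The sequences are shown because they are the fallen genes of the system in which this motif was found. The Plaur sequence covers chr7:24462233-24462482, the Mmp3 sequence chr9:7445751-7445807 and the Mmp13 sequence chr9:7272454-7272510, all on the plus strand and written 5′ to 3′, with the motif in capitals.
Plaur: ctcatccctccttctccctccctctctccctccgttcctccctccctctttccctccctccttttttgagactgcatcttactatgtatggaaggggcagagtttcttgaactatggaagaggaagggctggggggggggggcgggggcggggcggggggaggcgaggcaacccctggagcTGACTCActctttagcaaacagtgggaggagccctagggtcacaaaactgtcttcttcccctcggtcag
Mmp3: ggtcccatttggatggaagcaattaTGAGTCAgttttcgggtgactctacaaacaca
Mmp13: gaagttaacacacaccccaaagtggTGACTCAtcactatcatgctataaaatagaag
In Mmp3 the motif begins 46 bases before the start and in Mmp13 35 bases before it. The Plaur window is rich in G and C (59.6%) and also holds 3 copies of the GC box GGGCGG, overlaps allowed, a motif present on either strand in 32.7% of all windows, in 62.7% of the genes that fell and in 49.3% of the measured genes with a window, while the windows of Mmp3 (37.6% G and C) and Mmp13 (40.4%) hold 0. A match of letters does not show that a factor binds there.

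Of the transcription factors listed as binding the Plau promoter or enhancer, 15 were measured: 11 did not pass the test, 2 rose and 2 fell. Each of the last 2 counts is 13.3%, where 6.08% of all genes rose and 7.75% fell. Among the AP-1 subunit genes, Fos stood at 7.80, 8.05 and 8.10 on the tetraploid arrays and at 11.03, 11.26 and 10.70 on the diploid arrays, and was 8.08-fold lower in the tetraploid line (limma adjusted p = 0.000895). Fosb stood at 7.86, 6.95 and 7.81 on the tetraploid arrays and at 10.46, 10.42 and 10.39 on the diploid arrays, 7.37-fold lower (limma adjusted p = 0.0023), with tetraploid array 2 below background. Both had separate groups, and both calls remained without any 1 array. The other AP-1 subunits did not pass the test. Fosl1 differed by 0.90 (limma adjusted p = 0.162), Jun by -0.72 (0.284), Junb by -0.68 (0.0644), Fosl2 by -0.26 (0.663) and Jund by 0.15 (0.667). In the fit with values raised to background Junb was called lower (limma adjusted p = 0.0073), as were the listed factors Ets1 (0.017) and Egr1 (0.0402). Each of these genes lay above background on all arrays, so its values and its difference were the same in that fit. Over all genes that fit called 3947, in place of 2758. Fosl1 values were 10.64, 9.67 and 9.41 in the tetraploid line and 9.12, 8.58 and 9.33 in the diploid line, the opposite order to Fos. Ets2, an ETS family factor, rose to 9.64 ± 0.14 in the tetraploid line, against 8.65 ± 0.29 in the diploid line (SD, n = 3 each; limma adjusted p = 0.031). Sp1, which binds GC boxes, rose to 10.09 ± 0.09 in the tetraploid line, against 9.28 ± 0.12 in the diploid line (limma adjusted p = 0.034). The call of Ets2 ended without tetraploid array 2 or 3 or diploid array 1 or 2 (limma adjusted p 0.0699 to 0.125), and that of Sp1 in every such fit but the one without tetraploid array 1 (limma adjusted p 0.0634 to 0.132). Whether these genes bear on Plau or Plaur was not tested.

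**Figure D2:**
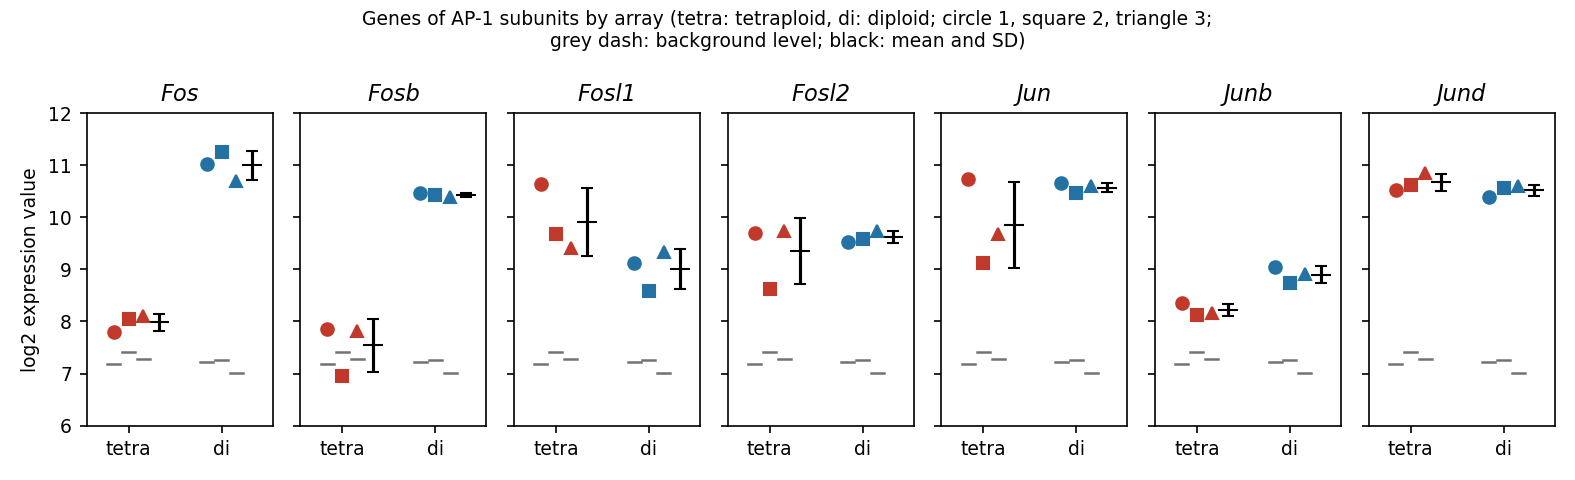
Log2 expression values of the 7 measured AP-1 subunit genes on each array, tetraploid in red on the left and diploid in blue on the right, with background levels as grey dashes and the mean and SD (n = 3) in black. Fos (difference -3.01) and Fosb (-2.88) are far apart between the lines, and the other subunits are closer together or overlap.

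The rest of the pathway was followed in 6 lists of 69 genes besides the members, of which 62 were measured. Of these, 18 fell (29.0%, against 7.75% of all genes), 2 rose (3.23%, against 6.08%) and 42 did not pass the test. The median difference was -0.39, against 0.07 over all genes, and -0.13 against 0.12 with values raised to the background level. In 35 genes (56.5%, against 37.3% of all genes) the lines did not overlap, and 11 lay below background on all 6 arrays. The lists were chosen with earlier results of these data known, so their counts are descriptions. Without diploid array 1, 2 or 3 the number called was 9, 10 and 13, in place of 20. Over all genes tested the same fits called 1040, 839 and 1262, in place of 2758. With values raised to background 26 pathway genes were called (3 higher, 23 lower), and 3947 over all genes (1960 higher, 1987 lower).

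**Figure D3:**
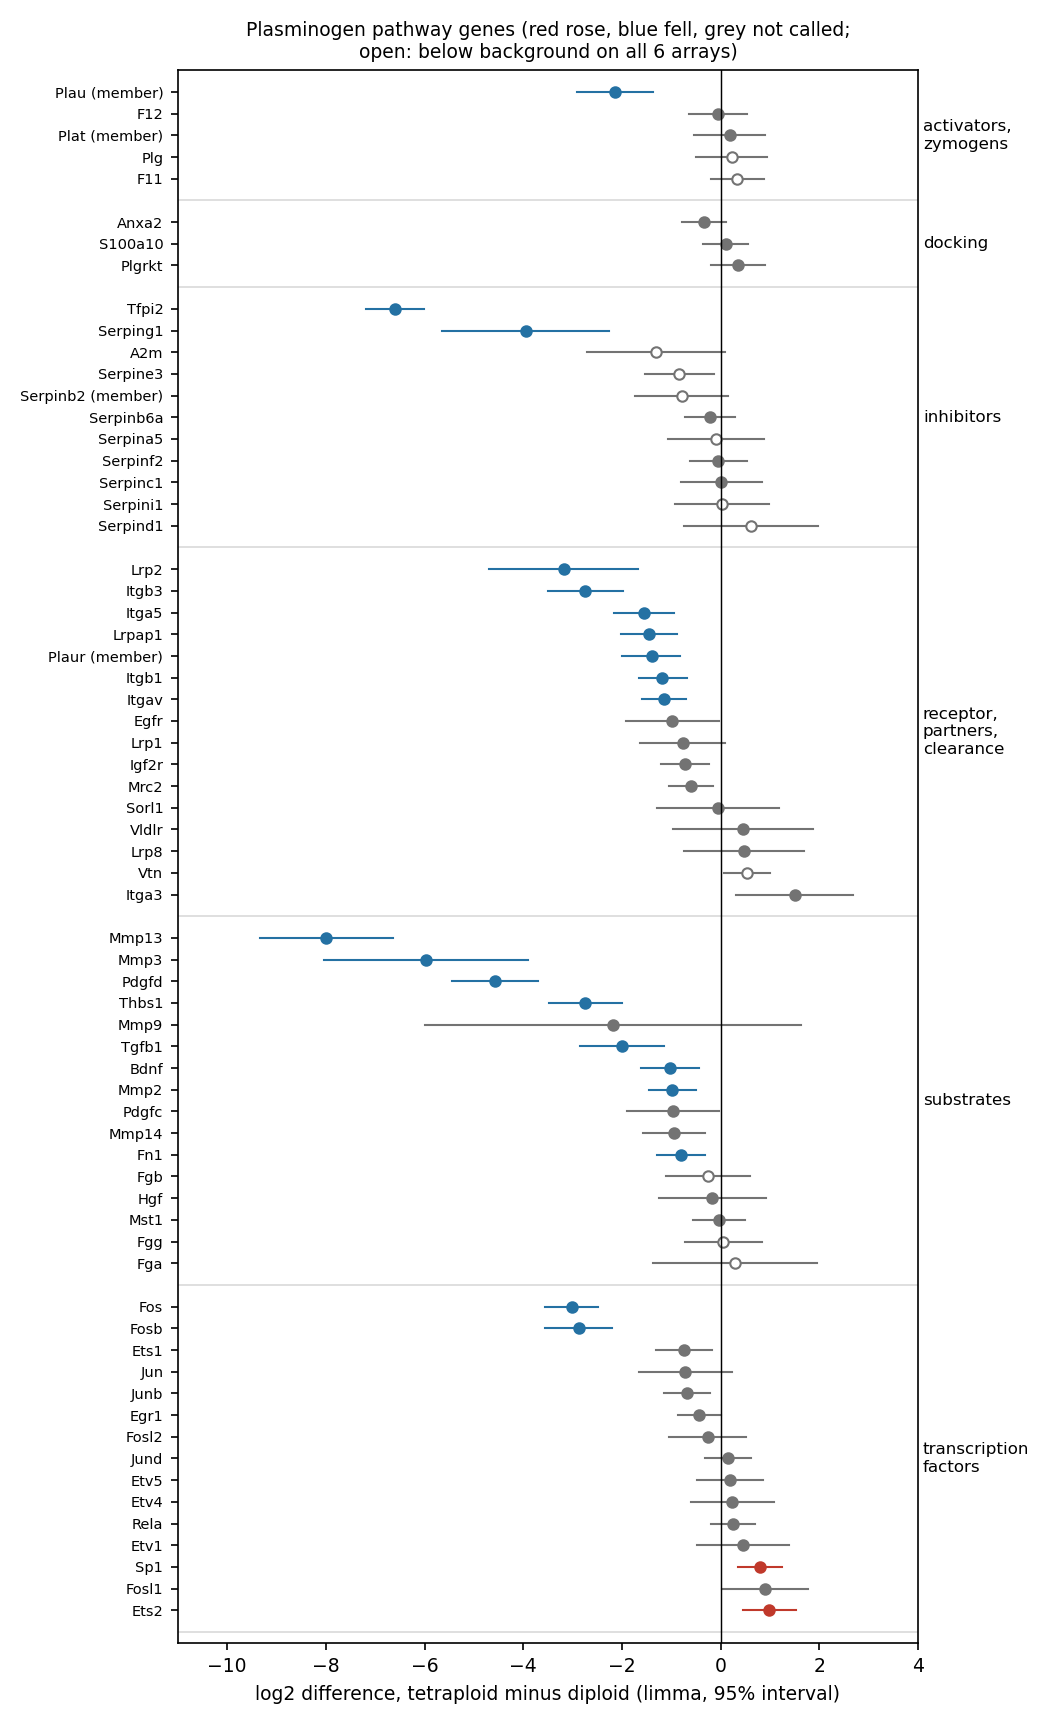
Log2 difference (tetraploid minus diploid, with its 95% interval from limma) of the 4 members and 62 other pathway genes, grouped by role. Genes that fell are blue, genes that rose red, genes that were not called grey, and open symbols lay below background on all 6 arrays. The falls lie mostly among receptor partners and substrates, and no activator, zymogen or docking gene besides Plau was called.

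Plasminogen itself and the proteins that dock it on cells showed no called change. Plg, made mainly by the liver, was below background on all 6 arrays, as was F11, a contact pathway zymogen. The plasminogen receptor gene Plgrkt averaged 8.71 ± 0.21 in the tetraploid line and 8.36 ± 0.26 in the diploid line (SD, n = 3 each; limma adjusted p = 0.362). Anxa2 and S100a10, whose products form a complex that binds plasminogen and Plat, differed by -0.34 (95% interval -0.78 to 0.11) and 0.10 (-0.36 to 0.55). Neither interval reaches the difference of Plau.

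Among the inhibitors, 10 were measured besides Serpinb2, and 2 fell (20%, against 7.75% of all genes), 0 rose and 8 did not pass. Tfpi2, a Kunitz-type inhibitor of plasmin that is laid down in the matrix, was at 3.67, 3.63 and 3.93 on the tetraploid arrays, all below background, and at 10.66, 10.41 and 9.94 on the diploid arrays. It was at least 8.26-fold lower in the tetraploid line (limma adjusted p = 7.36e-05), and the call remained without any 1 array. Serping1, the C1 inhibitor, which also blocks contact pathway proteases, lay at 3.93, 4.61 and 6.82 on the tetraploid arrays, below background, and at 8.51, 9.34 and 9.37 on the diploid arrays. It was at least 3.44-fold lower (limma adjusted p = 0.0158), but without tetraploid array 2, diploid array 2 or diploid array 3 the call ended (limma adjusted p 0.0567 to 0.0619). Serpinf2, the main plasmin inhibitor of blood, was above background at 8.62 ± 0.34 in the tetraploid line and 8.66 ± 0.20 in the diploid line (SD, n = 3 each). Of the 10 genes 5 lay below background on all arrays.

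Of 15 measured genes of receptor partners and of clearance besides Plaur, 6 fell (40%, against 7.75% of all genes), 0 rose and 9 did not pass. Itgb3, the vitronectin receptor subunit that cooperates with Plaur, stood at 7.18, 6.68 and 7.73 on the tetraploid arrays and at 10.27, 9.92 and 9.62 on the diploid arrays. It was 6.69-fold lower on the deposited values (limma adjusted p = 0.00419) and 5.64-fold lower with values raised to background, since 1 of the 3 tetraploid arrays lay above background. Its partner subunit Itgav was 2.22-fold lower, and the fibronectin receptor subunits Itga5 and Itgb1 were 2.93-fold and 2.26-fold lower (limma adjusted p 0.0124, 0.0124 and 0.0144). Lrpap1, the chaperone of the LDL receptor family, was 2.74-fold lower (limma adjusted p = 0.0117). Lrp1, the receptor that takes up urokinase bound to its inhibitor, stood at 10.22, 11.43 and 11.48 on the tetraploid arrays and at 11.87, 11.91 and 11.64 on the diploid arrays, which did not pass the test (limma adjusted p = 0.214). Lrp2 was called at a difference of -3.18 (limma adjusted p = 0.0221), but lay above background on 1 diploid array only, and raising values to background ended the call (limma adjusted p = 0.793). Mrc2, the collagen uptake receptor that associates with Plaur, differed by -0.60 (limma adjusted p = 0.0836), and the gene of the Plaur ligand vitronectin, Vtn, was below background. Itga3, a laminin receptor subunit reported to bind Plaur, stood at 9.90, 9.38 and 7.94 on the tetraploid arrays and at 8.0, 7.39 and 7.32 on the diploid arrays, a difference of 1.5 that did not pass the test (limma adjusted p = 0.0961). With values raised to background Itga3 was called higher (limma adjusted p = 0.0285), and Mrc2 (0.0114) and Igf2r of the same list (0.00705) lower. Itga3, Mrc2 and Igf2r lay above background on all arrays, so their values did not change in that fit. Without diploid array 1 the calls of Itgb1, Itgav, Itga5, Lrpap1 and Lrp2 ended (limma adjusted p 0.0502 to 0.0741). Without diploid array 2 those of Itgb1, Itgav and Lrpap1 ended (0.0538 to 0.0659), and that of Lrp2 ended without tetraploid array 1 or diploid array 3 (0.0559 and 0.0773).

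Substrates of plasmin and of the activators fell in 8 of 16 genes (50%, against 7.75% of all genes), rose in 0 and did not pass in 8. Pdgfd, a growth factor whose latent form urokinase can cut, stood at 5.70, 4.42 and 4.44 on the tetraploid arrays, below background, and at 9.57, 9.29 and 9.44 on the diploid arrays. It was at least 4.42-fold lower (limma adjusted p = 0.00109). Pdgfc, the relative cut by Plat, differed by -0.96 and did not pass (limma adjusted p = 0.157). Thbs1, a matrix protein that activates latent TGF-beta, was 6.68-fold lower, with a limma adjusted p of 0.00378. Tgfb1, whose latent complex plasmin can release, fell to 9.11 ± 0.73 in the tetraploid line, against 11.11 ± 0.07 in the diploid line (SD, n = 3 each; limma adjusted p = 0.0164). Of the pro-metalloproteases that act downstream of plasmin, Mmp13 was at least 3.74-fold lower, Mmp3 at least 1.83-fold and Mmp2 1.97-fold (limma adjusted p 0.000788, 0.00853 and 0.0233). Mmp14 differed by -0.95 and did not pass (limma adjusted p = 0.0604). It was called lower in the fit with values raised to background (0.00971), which left its own values unchanged. Mmp9 was at 10.47, 6.22 and 3.22 on the tetraploid arrays and at 9.20, 8.41 and 8.85 on the diploid arrays, and tetraploid array 1 alone lay above the diploid values. The fibronectin gene Fn1 was 1.74-fold lower and the neurotrophin gene Bdnf 2.03-fold lower (limma adjusted p 0.045 and 0.0395). The fibrinogen genes Fga, Fgb and Fgg lay below background on all arrays. The calls of Tgfb1 and Mmp2 ended without any 1 diploid array (limma adjusted p 0.0553 to 0.0626 and 0.0633 to 0.098). That of Fn1 ended in every such fit but the one without tetraploid array 1 (0.0767 to 0.152), and that of Bdnf in every one but that without tetraploid array 3 (0.0755 to 0.128). The calls of Pdgfd, Thbs1, Mmp3 and Mmp13 remained without any 1 array.

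The members lie on 4 chromosomes, and their neighbours were read to see whether a fall extended along the chromosome. Plaur, on chromosome 7, differed by -1.40, while its nearest measured genes Smg9, Irgc1, Cadm4 and Zfp428 differed by 0.11, 0.45, -0.16 and 0.02, none of them called. Cadm4 and Zfp428 lay below background on all arrays, Irgc1 was above it on 1 tetraploid array and Smg9 on 1 tetraploid and 2 diploid arrays, so a fall in these genes could hardly have been seen. On chromosome 14 the genes before Plau, Ndst2 and Camk2g, differed by 0.10 and -0.06 and were not called. After Plau, Vcl, which encodes the adhesion protein vinculin, fell to 11.11 ± 0.54 in the tetraploid line, against 12.45 ± 0.03 in the diploid line (SD, n = 3 each; limma adjusted p = 0.0289). The call of Vcl was lost when tetraploid array 2 or any 1 of the diploid arrays was left out (limma adjusted p up to 0.0975). The next gene, Ap3m1, differed by -0.74 with separate groups (limma adjusted p = 0.0534). The genes around Plat on chromosome 8, Polb, Ikbkb, Ap3m2 and Kat6a, differed by -0.05 to 0.51 and were not called. Around Serpinb2, in a cluster of serpin genes on chromosome 1, Serpinb11, Serpinb7 and Serpinb10 were below background on all arrays as well. Serpinb8 was above it on 2 tetraploid and all 3 diploid arrays and differed by -0.86 (limma adjusted p = 0.185).

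**Figure D4:**
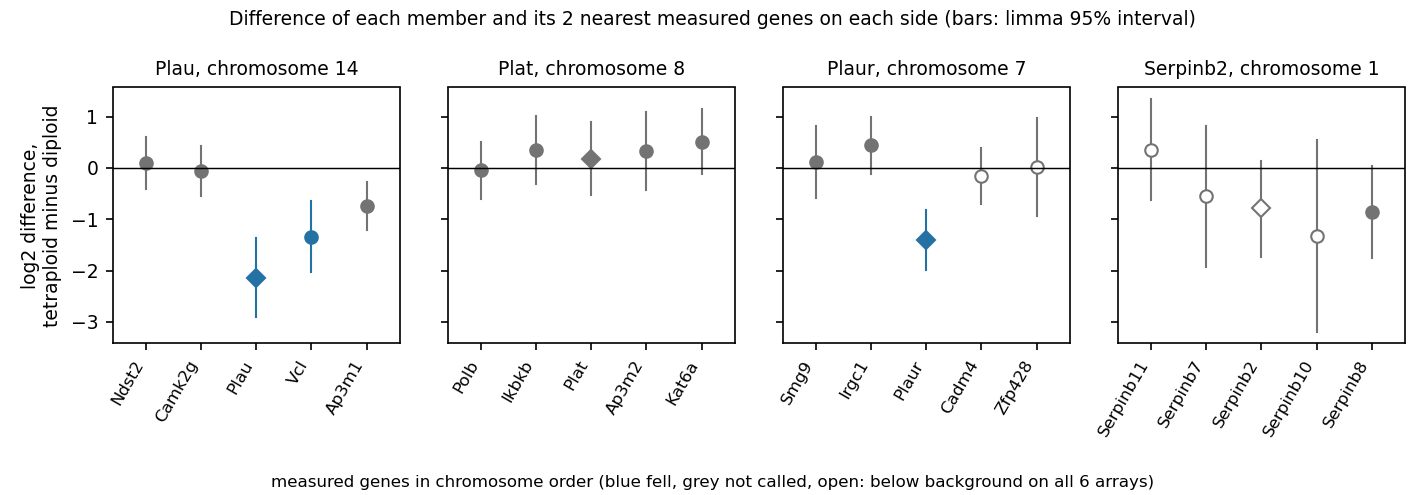
Log2 difference (tetraploid minus diploid, 95% interval from limma) of each member, drawn as a diamond, and of the 2 nearest measured genes on each side in chromosome order. Blue symbols fell, grey ones were not called, and open ones lay below background on all arrays. The neighbours of Plaur were not called but lay at or near background, and Plau lies beside Vcl, which fell too.

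Among 10552 other genes whose mean exceeded the background level, likeness to a member was measured as the Euclidean distance over the 6 arrays between log2 values centred on each gene's mean. The genes closest to Plau were Col11a1, a fibrillar collagen chain (distance 0.362), Nupr1, a stress-induced nuclear protein (0.417), and Nbl1, a BMP antagonist (0.423), with differences of -2.01, -2.07 and -2.34. Nbl1 lay at 7.04, 6.52 and 7.30 on the tetraploid arrays, the first 2 below background, so its difference is not an exact size. Tetraploid array 2 was the lowest of the 6 in all 3, as it was in Plau. Closest to Plaur were Actc1, the cardiac actin gene (distance 0.125), Zfp568 (0.289) and the phosphatase gene Ptpn14 (0.359), with differences of -1.44, -1.47 and -1.33. Zfp568 was below background on tetraploid arrays 1 and 2 (7.12 on both), and its difference has the same limit. The genes nearest to Plat were Sox2 (0.158), 5730408K05Rik (0.259) and Evpl (0.262), with differences of 0.25, 0.27 and 0.03. These distances over 6 arrays of 2 lines are descriptions.

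Plau, Plaur and Serpinb2 are also made by macrophages, whose markers as a list were highest on diploid arrays 2 and 3. Of 16 macrophage markers 4 fell (Lyz1, Lyz2, Mrc1 and C1qa, 25% against 7.75% of all genes), 0 rose and 12 did not pass. On all arrays 7 lay below background, Mrc1 among them. Csf1r and Cd14 differed the other way, by 0.18 and 0.36, and neither passed the test. Csf1r was highest on tetraploid array 2, at 8.55, and Cd14 lay below background on all arrays. The summed linear signal of the 16 markers was 499 to 879 on the tetraploid arrays, against 669, 2028 and 3651 on diploid arrays 1 to 3. The sum of diploid array 1 thus lay within the tetraploid range. The median difference of the list with values raised to background was 0.06, against 0.12 over all genes. On tetraploid array 1, Adgre1 and Lyz1 were at 0. Lyz2, the macrophage lysozyme gene, was at 4.58, 3.63 and 0.44 on the tetraploid arrays and at 6.48, 9.32 and 9.98 on the diploid arrays. On diploid array 1, where 1 of the 16 markers was above background and the list was lowest of the diploid arrays, Plau was at 11.30 and Plaur at 9.76. Of 10 endothelial markers 2 fell (Kdr and Emcn, 20% against 7.75% of all genes) and 0 rose. Another 6, among them Cdh5, were below background on all arrays. The summed signal of the 10 was 1047 to 1523 on the tetraploid arrays, against 1736 to 1991 on the diploid arrays. Of 10 epithelial and keratinocyte markers 2 fell (Krt18 and Dsp, also 20%) and 0 rose. On all arrays 3 of these lay below background, Dsp among them. The sums of this list were 1282 to 1846 on the tetraploid arrays, against 1713 to 2207 on the diploid arrays. With values raised to background the calls of all of these marker genes but Kdr ended (limma adjusted p 0.076 to 0.956). In that fit the epithelial marker Perp, not called on the deposited values (limma adjusted p = 0.0506), was called lower (0.00689), at least 1.95-fold. Without tetraploid array 2 the calls of Lyz2, Mrc1, C1qa, Krt18 and Dsp ended, and without diploid array 2 those of Lyz1, Lyz2, Mrc1, C1qa and Dsp. Further calls ended without diploid array 3 (Lyz2, Mrc1 and C1qa), tetraploid array 3 (Lyz2 and Dsp), tetraploid array 1 (C1qa) or diploid array 1 (Mrc1), with a limma adjusted p of at most 0.119 in any of these fits. The part of macrophage, endothelial and epithelial transcripts in the differences of Plau and Plaur was not tested.

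**Figure D5:**
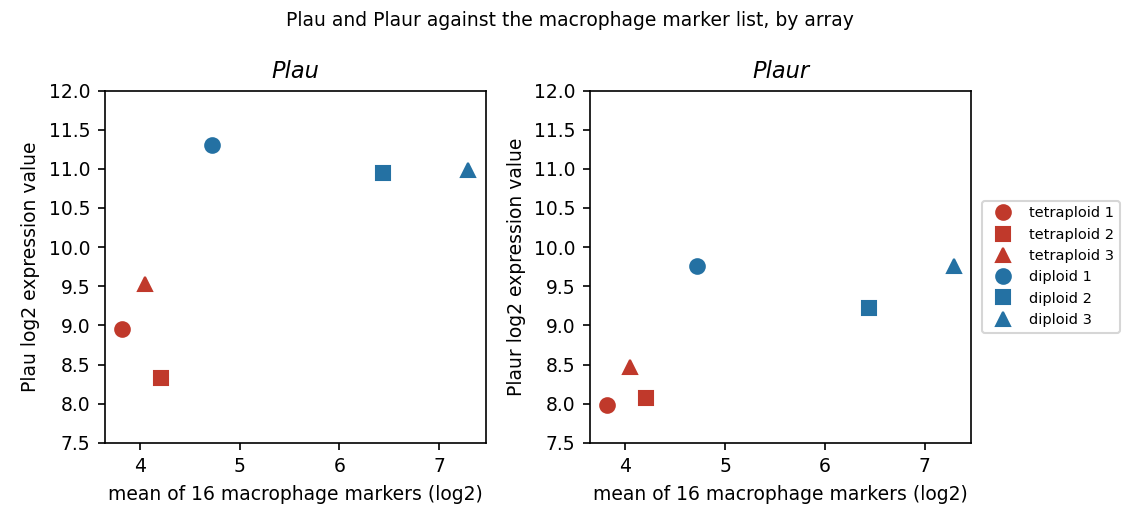
Plau (left) and Plaur (right) log2 expression values against the mean log2 value of 16 macrophage markers, 1 point per array, tetraploid in red and diploid in blue. The tetraploid arrays lie between 3.82 and 4.21 on the marker axis, with Plau between 8.33 and 9.53 and Plaur between 7.98 and 8.47. The diploid arrays lie between 4.72 and 7.29 on it, with Plau between 10.94 and 11.30 and Plaur between 9.22 and 9.76.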

How the data were processed

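The 6 columns of values were used, 1 per array. Values were deposited as log2 signals, made with Affymetrix Expression Console per the submitters' processing notes. The version, the algorithm and the normalization are not given in the sources used here. Of 28944 probe sets 21789 had 1 gene symbol, 1621 several and 5534 none. Symbols were updated through Entrez IDs in the RefSeq table of GRCm38.p6 (21698 probe sets matched), and the probe set with the highest mean was kept per gene. Arrays give no counts, so the number of arrays limits the precision.

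The lines were compared in R 4.3.3 by a moderated two-sided test (limma 3.58.1), without a block. The fit was tested on simulated data. Folds of genes below background on all arrays of 1 line are lower bounds, computed with values raised to the background level. No fold is given where that left no difference in the same direction. Alternatives were other normalizations, background handling, a filter on dim genes, other priors and weights, means over probe sets, a replicate block and leaving out each array. Named genes are the members, every called gene of the lists, close partners, the 2 nearest measured genes on each side and the 3 most alike genes. Members and lists were chosen with earlier results of these data known.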

Additional observations from a re-analysis of the deposited data

How the results depend on the processing

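The differences of Plau and Plaur kept their sign in all 14 alternative fits. The call of Plau held in all 14 and that of Plaur in 12, with the exceptions without diploid array 1 (-1.31) or diploid array 3 (-1.32). Over the fits without 1 array, differences ranged from -2.43 to -1.83 for Plau, -1.58 to -1.31 for Plaur, -0.09 to 0.40 for Plat and -1.11 to -0.45 for Serpinb2. Plat changed sign only without tetraploid array 3 (-0.09), and Serpinb2 only when values were raised to background (0.12). The number of genes called was 839 to 2522 without 1 array and 2738 to 4015 in the fits on all arrays without a block. The number of other pathway genes called was 9 to 20 without 1 array. With the replicate number as a block, 1647 genes and 15 other pathway genes (0 higher, 15 lower) were called, and Plau and Plaur kept their calls (limma adjusted p 0.0212 and 0.0346). No label pairs the numbers: deviations from the group mean of same-numbered arrays correlated across genes at 0.1003, 0.0308 and -0.0461, and 3 of 6 arrays correlated best with their own number. Within-array shifts kept their sign in every alternative run: without 1 array they ranged from -0.88 to -0.48 for Plau minus Plaur, -2.54 to -2.07 for Plau minus Plat and -1.90 to -1.37 for Plaur minus Plat. The planned shifts against Serpine2 were not run, since that gene was not analysed here. Serpinb2 had no value under the filter on dim genes. Signal over background limits what can be said of Serpinb2 and of genes below background in 1 line.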
